A study of Mus musculus with 4 samples.

Results

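A pair of mouse liver tumours, called tumour 1 and tumour 2 in the sample titles, were compared gene by gene by RNA sequencing. They are 2 of the 4 libraries of the series and were chosen by those titles, not by any measured value. Both tumours carry the same genotype label: heterozygous for beta-2SP (the gene Spnb2, now Sptbn1, which encodes the spectrin beta-2SP, an adaptor of SMAD3) and heterozygous for SMAD3. The remaining libraries are normal liver, 1 labelled with the same double heterozygous genotype and 1 labelled wild type, and their values are given only as a reference level. The submitters' short descriptions pair the word Tcell with Elf in the case of tumour 1 and with Smad in that of tumour 2, and it is not stated what these words mean. The descriptions thus differ between the tumours where the genotype label does not. Whether the tumours differed in genotype cannot be settled from them, and the genotype label is followed here. The labels do not say the strain, age, sex or treatment, how the alleles were made, or whether the tumours came from separate animals. There is 1 library for each tumour. Every difference below is therefore a difference between 2 libraries with no replicate check and no test, and the intervals printed cover counting error only.

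SMAD3 and SMAD4 carry the transcriptional signal of the TGF-beta receptors, and beta-2SP helps to bring SMAD3 to its targets. In liver this pathway restrains the growth of epithelial cells, and it also drives matrix production by mesenchymal cells. Liver tumours can resemble hepatocytes or bile duct cells, and some express gut genes, since liver, bile ducts and intestine share an origin in the endoderm. Proliferating cells switch on a replication program under E2F factors in the G1/S phase. A mitotic program follows in the G2/M phase, through the promoter elements called CHR and CCAAT.

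The targeted genes were expressed in both tumours. Spnb2 had 16607 counts in tumour 1 and 19149 in tumour 2, or 1503 and 1440 counts scaled to the library's total gene counts (CPM), against 211 and 192 CPM in the double heterozygous and the wild type normal liver. The tumours thus differed by 1.04-fold in Spnb2 (95% counting interval 1.02 to 1.07). Smad3 stood at 409 CPM in tumour 1 and 164 CPM in tumour 2, against 26.7 and 24.9 CPM in the normal livers, and was 2.50-fold higher in tumour 1 (2.38 to 2.63). Counts per gene cannot tell a heterozygous from a wild type allele, so these values do not check the genotype. Smad2, the partner of SMAD3 in the same signal, had 82.1 and 79.5 CPM in tumours 1 and 2, and Smad4, the partner that both share, had 164 and 139 CPM.

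Depth and identity of the libraries were as follows. Gene counts totalled 11049931 in tumour 1 and 13295216 in tumour 2, and 15950426 and 18448621 in the normal livers. Where a gene had 0 counts, 3 counts were used as the limit that a 0 allows, which is 0.271 CPM in tumour 1 and 0.226 CPM in tumour 2. Xist, the X-inactivation transcript, of which 11.9% of sampled 31-base words are shared with other genes, had 0 counts in tumour 1 and 6626 in tumour 2, whereas the Y-linked gene Ddx3y had 2208 and 2. The normal livers had 9 counts of Xist each, and 1669 and 1860 of Ddx3y. Tumour 1 and the normal livers thus had a male pattern and tumour 2 a female pattern. Sex therefore cannot be told apart from the other differences between the tumours. The normal tables held the same count for 56.8% of 2632 genes with a mean count of 1 to 5, against 13.1% of 2299 such genes between the tumours. The normal tables are therefore not taken as independent of each other, and their likeness is no replicate check. Their values are given one by one and never averaged. The 16 hepatocyte markers summed to 231 CPM in tumour 1 and 234 CPM in tumour 2, against 133452 and 130282 CPM in the normal livers. Of these sums Hnf4a, a factor that the gut also expresses, held 210 and 150 CPM, and the other 15 markers summed to 20.5 and 84.2 CPM. Alb, the hepatocyte product albumin, had 123 and 807 counts in the tumours, or 11.1 and 60.7 CPM, most of the sum of those 15. The others lay on both sides at low counts, as with Fgb (10 and 106 counts) and Cyp3a11 (10 and 5 counts). The 15 bile duct markers, which include biliary keratins, summed to 4206 and 3499 CPM in the tumours and to 135 and 128 CPM in the normal livers. In the tumours Spp1 alone, with 12.3% of its sampled words shared, held 2050 and 2221 CPM of these sums. Of the 16 T and NK cell markers, 11 were at 0 in both tumours, and the list summed to 4.52 and 2.48 CPM. Hepatocyte markers other than Hnf4a were thus far below normal liver in both tumours, while most T and NK cell markers were at 0. The higher hepatocyte sum in tumour 2 came mainly from Alb and does not describe the list as a whole.

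**Figure D1:**
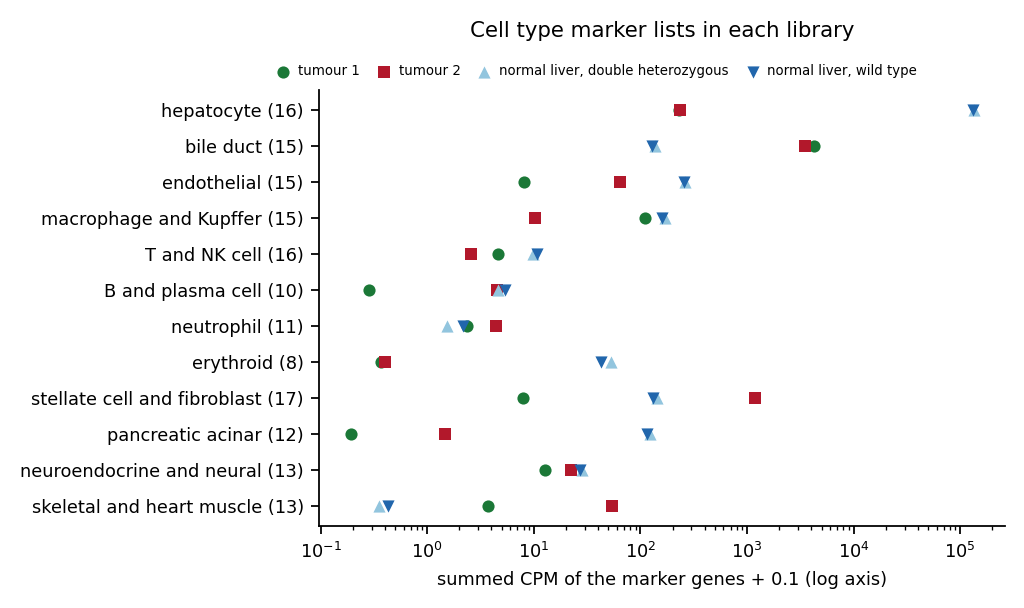
Summed CPM of 12 cell type marker lists in each library (horizontal log axis, with 0.1 added; each point is 1 library, and the number of markers in the tables stands in brackets). The sums for hepatocyte markers nearly coincide (231 and 234 CPM, mostly Hnf4a), and the tumours lie apart for macrophage markers (109 and 10.1 CPM) and for stellate cell and fibroblast markers (7.87 and 1196 CPM).

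Tumour 1 had more RNA of gut genes, and tumour 2 had more RNA of mitotic, replication and collagen genes. Epithelial genes leaned toward tumour 1 and mesenchymal genes toward tumour 2. Among genes at 10 CPM in both tumours, only 1 of 33 epithelial and 1 of 11 mesenchymal genes lay past 4-fold. So did 3 of 14 gut, 4 of 10 collagen, 26 of 26 mitotic and 32 of 44 replication genes. Among the 10288 genes that reached 10 CPM in at least 1 tumour, 1128 lay past 4-fold between the tumours (11.0%). Of these, 344 were higher in tumour 1 (3.34%) and 784 were higher in tumour 2 (7.62%). These shares are the background for the counts below over genes that reached 10 CPM in at least 1 tumour. The median log2 ratio of tumour 1 over tumour 2 was -0.07 (with a prior count of 2, positive when tumour 1 is higher), and 71.2% of the genes lay within 2-fold. A gene could enter this set through 1 tumour alone: 8576 genes reached 10 CPM in both tumours, 609 in tumour 1 only and 1103 in tumour 2 only. Of the 8576 genes, 93 lay past 4-fold higher in tumour 1 and 194 higher in tumour 2, so most genes past 4-fold were under 10 CPM in one of the tumours. Those lower counts are the background wherever genes at 10 CPM in both tumours are counted below. Just inside the minimum were Podxl2 (6.24 CPM in tumour 1, 10.004 in tumour 2) and Apex2 (4.62 and 10.004), and just outside were Mfsd9 (9.95 and 5.72) and Mfsd3 (9.95 and 8.12).

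**Figure D2:**
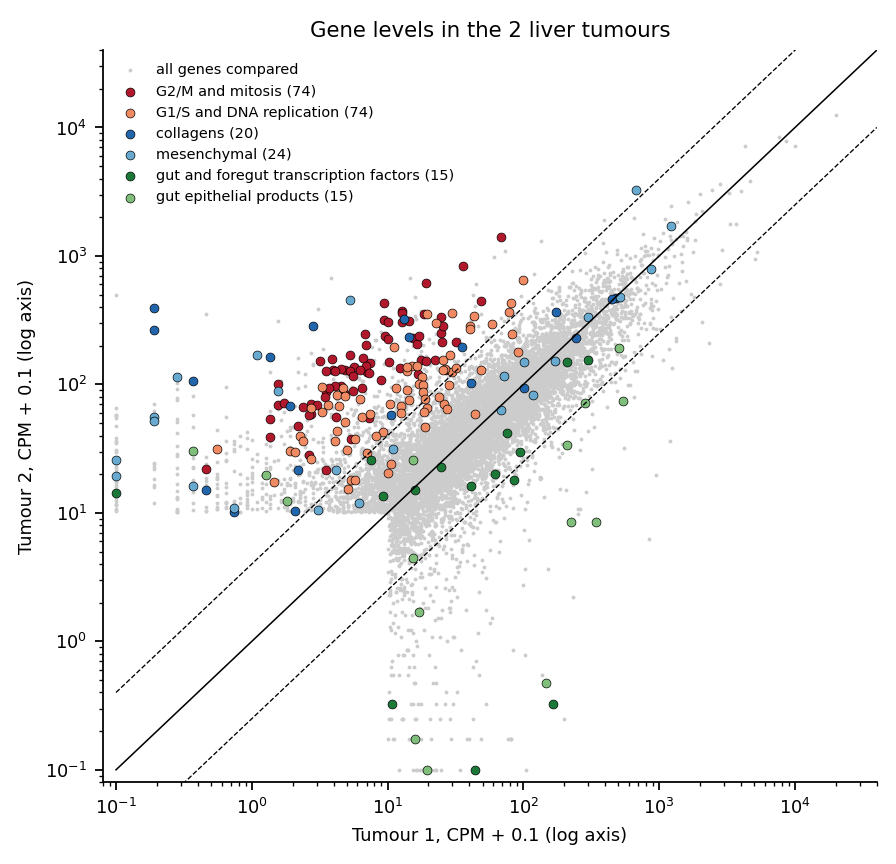
Level of each of the 10288 genes compared in tumour 1 (horizontal) and tumour 2 (vertical), in CPM plus 0.1 on log axes; the solid line marks equal levels, the dashed lines 4-fold, and coloured points are members of 6 gene lists. All 74 G2/M genes lie above the upper dashed line, collagen and mesenchymal genes lie above the solid line or close to it, and gut genes lie mostly below it.

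Cell division gave the list whose median lay farthest from 0 among the 16 lists. All 74 genes of the G2/M and mitosis list found in the tables were past 4-fold higher in tumour 2, where 7.62% of all genes compared were. Their summed level was 787 CPM in tumour 1 and 14014 CPM in tumour 2, against 50.97 and 60.9 CPM in the normal livers. The median log2 ratio of the list was -4.43, and its members ran from -5.96 to -2.27. Because all 74 reached 10 CPM in tumour 2, none was left out by the minimum. In tumour 1, 26 of them reached it too, and those 26 were also past 4-fold.

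The promoters of these genes are shown because they carry a common feature that the counts did not use. Below are the 120 bases before the start of the 4 G2/M genes with the largest ratios that hold both the CHR letters and a CCAAT box there, on the gene's strand from 5′ to 3′, with both elements in capitals (the CHR letters TTTGAA and the CCAAT box, each also where it reads on the opposite strand). They are from RefSeq on GRCm38.p6, at chr15:102296173-102296292 (+ strand, Espl1), chr3:159495313-159495432 (+ strand, Depdc1a), chr4:118437344-118437463 (- strand, Cdc20) and chr2:164769809-164769928 (+ strand, Ube2c). Cdc20 and Ube2c were named for this after their values were seen, and 22.9% and 25.2% of their sampled words are shared with other genes. Promoters of a single chromosome were left out of this choice, so a gene there with a larger ratio would not be shown.
Espl1: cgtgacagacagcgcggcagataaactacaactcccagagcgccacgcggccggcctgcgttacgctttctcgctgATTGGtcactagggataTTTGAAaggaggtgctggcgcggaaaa
Depdc1a: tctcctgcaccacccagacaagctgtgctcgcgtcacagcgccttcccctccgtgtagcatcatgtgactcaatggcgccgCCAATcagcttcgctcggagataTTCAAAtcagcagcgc
Cdc20: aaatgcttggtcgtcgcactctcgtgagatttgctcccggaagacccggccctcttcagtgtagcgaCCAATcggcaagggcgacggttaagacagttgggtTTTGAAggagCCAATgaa
Ube2c: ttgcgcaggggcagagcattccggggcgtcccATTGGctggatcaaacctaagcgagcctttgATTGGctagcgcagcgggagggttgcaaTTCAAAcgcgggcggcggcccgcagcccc
Within windows from 250 bases before to 50 bases after the start, TTTGAA was found on either strand in 47 of 67 promoters of the list (70.1%, from 62 matched genes), against 17.9% of all 32851 promoters in the table. The CCAAT box was in 73.1% of the list's promoters and 37.4% of all. Both elements together were in 56.7% of the list's promoters, in 10.1% of those of the G1/S and DNA replication list and in 6.95% of all. These are matches of letters, given as a description.

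The single genes show the size of the difference. Top2a, the topoisomerase that untangles chromosomes before they part, had 753 counts in tumour 1 and 18806 in tumour 2. In CPM this was 68.1 and 1414, with 0.815 and 1.03 in the normal livers, a difference of 20.8-fold (19.3 to 22.4). Mki67, the gene of the proliferation antigen Ki-67, had 36.0 CPM in tumour 1 and 835 in tumour 2, which was 23.2-fold higher in tumour 2 (21.0 to 25.7). Both genes were lowest in the normal livers, intermediate in tumour 1 and highest in tumour 2.

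The members with the largest ratios, named for that, act at several steps of mitosis. Kif2c, a kinesin that takes apart microtubule ends at the centromere, had 16 counts in tumour 1 and 1335 in tumour 2 and was 69.3-fold higher in tumour 2 (42.5 to 122). Espl1, the protease separase that cuts cohesin at anaphase, had 34 and 2024 counts, a 49.5-fold difference (35.3 to 71.6). Cenpf, a kinetochore protein, stood at 9.23 CPM in tumour 1 and 431 CPM in tumour 2, or 46.7-fold higher (38.4 to 57.3). Kif14, a kinesin of cytokinesis, differed by 47.3-fold and Cdca8, the borealin subunit of the chromosomal passenger complex, by 44.0-fold. Depdc1a had 4 and 289 counts, but 62.4% of its sampled 31-base words also occur in other genes, so its counts are uncertain.

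Replication genes moved in the same direction over a wider range. In the G1/S and DNA replication list, 58 of 74 genes were past 4-fold higher in tumour 2 and none in tumour 1, and all 74 had a log2 ratio below 0. The list median was -2.67 and its members ran from -5.67 to -0.41. Its summed level was 1487 CPM in tumour 1 and 8689 CPM in tumour 2. Of the 44 members that reached 10 CPM in both tumours, 32 were past 4-fold.

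E2F letters (TTTCGCGC or TTTGGCGC, on either strand) were in 21.7% of the 69 promoters of this list, in 7.46% of those of the G2/M list and in 0.813% of all promoters. The 2 genes with the largest ratios that hold these letters in the 120 bases before the start are shown for comparison with the mitotic promoters above, with only the E2F letters in capitals. They lie at chr4:108579334-108579453 (+ strand, Orc1l) and chr5:151651209-151651328 (- strand, Rfc3) on GRCm38.p6, and both genes were named after their values were seen. Promoters of the same chromosome were left out here as for the mitotic genes.
Orc1l: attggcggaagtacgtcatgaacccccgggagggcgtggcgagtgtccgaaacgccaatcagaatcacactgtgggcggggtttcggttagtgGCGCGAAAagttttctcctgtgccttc
Rfc3: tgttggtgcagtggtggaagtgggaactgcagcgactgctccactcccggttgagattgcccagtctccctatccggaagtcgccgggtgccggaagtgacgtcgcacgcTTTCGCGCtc
The CHR letters were in 17.4% of the replication promoters, close to their share of all promoters.

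Among the replication genes, E2f7, a repressor that is itself an E2F target, had 5 counts in tumour 1 and 416 in tumour 2 and was 69.1-fold higher in tumour 2 (29.4 to 214). Tk1, thymidine kinase, had 3.17 and 95.1 CPM, which was 30.02-fold (21.5 to 43.3). Clspn, the checkpoint adaptor claspin, differed by 25.1-fold, Cdc45l, a subunit of the replicative helicase, by 19.8-fold, and Fancd2, of the Fanconi repair pathway, by 19.5-fold. Mcm2, a subunit of the helicase core, had 40.5 CPM in tumour 1 and 283 CPM in tumour 2, or 7.0-fold (6.34 to 7.73). Rfc1, the large subunit of the clamp loader, and Cdc25a, a phosphatase that activates CDKs, were the 2 members within 2-fold, at 91.3 and 180 CPM and at 43.9 and 58.4 CPM.

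The cyclins D, CDKs and CDK inhibitors, which act before the replication program, had a median nearer to 0. Of 21 genes compared, 1 was past 4-fold, Rbl1, the pocket protein p107, at 21.7 CPM in tumour 1 and 87.8 CPM in tumour 2 (4.04-fold, 3.51 to 4.66). With TMM scaling, median-of-ratios scaling or a prior count of 5 it was no longer past 4-fold, which left 0 genes. The list median was -0.35, and 14 genes lay within 2-fold. Ccnd1, cyclin D1, had 1021 CPM in tumour 1 and 1306 CPM in tumour 2 against 12.1 and 10.5 CPM in the normal livers, but 24.1% of its sampled words are shared with other genes. Ccnd2 had 391 and 355 CPM in the tumours. Cdkn1a, the inhibitor p21, had 145 and 83.6 CPM, and Cdkn2a, the locus of p16 and ARF, had 8.14 and 19.1 CPM. Myc stood at 51.5 and 97.2 CPM. Ccnd1 and Ccnd2 were thus at a similar level in the tumours, unlike the mitotic genes.

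**Figure D3:**
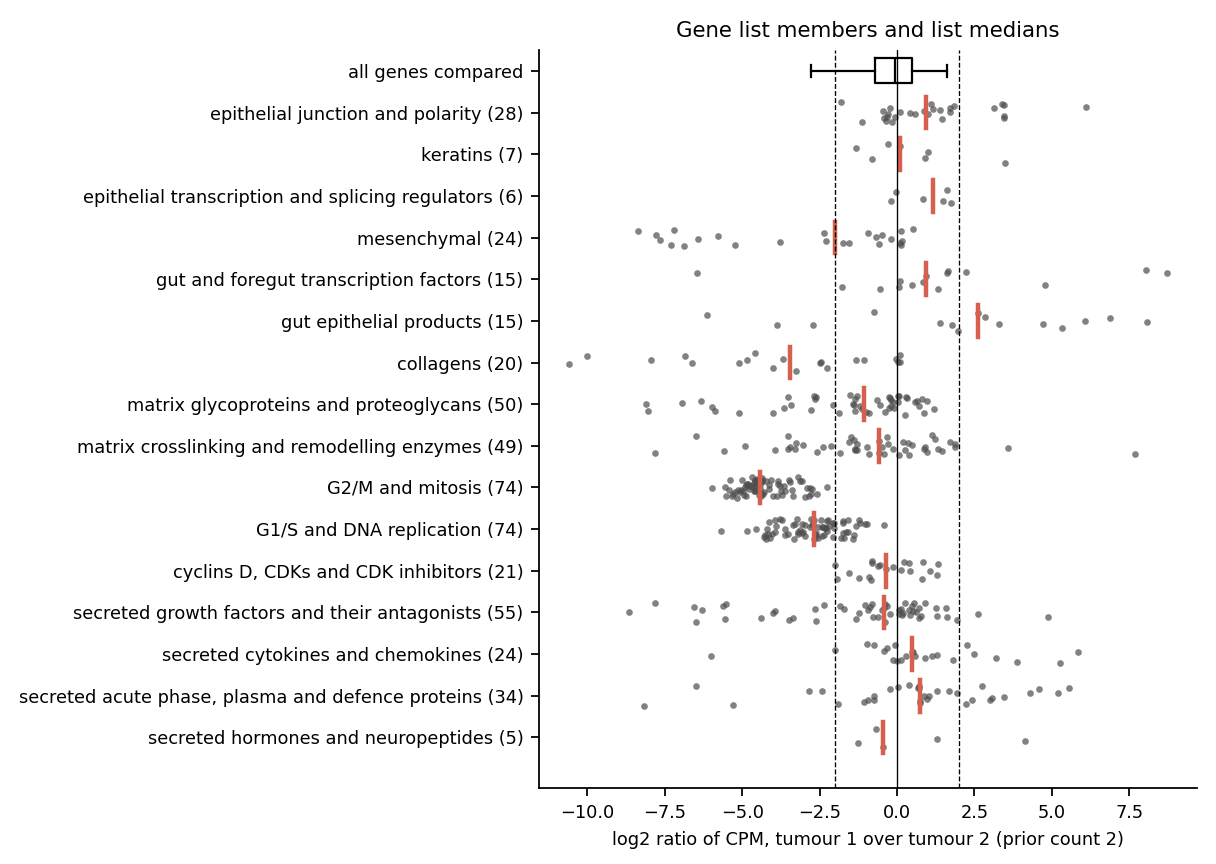
Log2 ratio of tumour 1 over tumour 2 for each list member compared (grey points, 1 per gene; the number of members stands in brackets), with list medians as red bars and 4-fold as dashed lines; the box shows the quartiles and the whiskers the 5th to 95th percentile of all 10288 genes. The G2/M median lies at -4.43, the G1/S median at -2.67, that of cyclins D and CDKs at -0.35 and that of gut epithelial products at 2.63.

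Gut epithelial products had the highest list median toward tumour 1, and a smaller number of gut and stomach genes were higher in tumour 2. Of 30 gut genes compared, 12 were past 4-fold higher in tumour 1 (background 3.34%) and 4 higher in tumour 2. Another 78 gut genes in the tables were under the minimum in both tumours. All 108 gut genes in the tables summed to 3558 CPM in tumour 1 and 1065 CPM in tumour 2. Both sums were below the 7514 and 6899 CPM of the double heterozygous and the wild type normal liver. The 15 transcription factors had a median of 0.94 and the 15 epithelial products a median of 2.63. Only 14 of the 30 reached 10 CPM in both tumours, and 3 of those 14 were past 4-fold higher in tumour 1.

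The intestinal factor Cdx2, which specifies intestinal epithelium, had 1814 counts in tumour 1 and 3 in tumour 2, or 164 and 0.226 CPM, with 0.376 and 0.379 CPM in the normal livers. The ratio was 728 (counting interval 249 to 3531). Isx, an intestinal homeobox gene, had 481 counts in tumour 1 and 0 in tumour 2, at least 193-fold higher in tumour 1. Hnf4g, a nuclear receptor of the gut, had 117 and 3 counts (46.9-fold, 15.7 to 231), and Gata6, an endoderm factor, had 85.4 and 18.1 CPM (4.73-fold, 4.10 to 5.48). For Cdx2 and Isx, tumour 2 was at or near the level of normal liver, and only tumour 1 stood above it.

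Factors that liver, bile duct and gut share differed less. Hnf4a, a nuclear receptor of hepatocytes and enterocytes, had 210 CPM in tumour 1 and 150 CPM in tumour 2, both below the 710 and 653 CPM of the normal livers. Foxa2 had 75.7 and 42.0 CPM in the tumours, Onecut2 299 and 156 CPM, and Gata4 15.8 and 15.0 CPM. Sox9, a factor of bile duct and crypt cells, had 9.14 and 13.4 CPM. In the other direction, Nkx2-3, a homeobox gene of gut mesenchyme, had 0 counts in tumour 1 and 189 in tumour 2, at least 52.4-fold higher in tumour 2.

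Products of the intestinal surface followed Cdx2 in direction. Muc13, a membrane mucin, had 1613 counts in tumour 1 and 5 in tumour 2, or 146 and 0.376 CPM (388-fold, 166 to 1197). Tm4sf20 had 213 and 0 counts, at least 85.4-fold higher in tumour 1, and Gpa33, an intestinal cell surface antigen, had 175 and 1. Lgals4, a galectin of the intestinal brush border, stood at 340 and 8.35 CPM (40.7-fold, 33.7 to 49.6), and Gcnt3, an enzyme of mucin glycosylation, at 226 and 8.42 CPM (26.8-fold). Cdh17, the liver-intestine cadherin, had 537 CPM in tumour 1 and 74.2 CPM in tumour 2, with 5.45 and 4.93 CPM in the normal livers (7.24-fold, 6.77 to 7.76). Vil1, the microvillus protein villin, had 210 and 33.7 CPM (6.22-fold, 5.62 to 6.90). Cdh17 and Vil1 were therefore above normal liver in both tumours, with the higher level in tumour 1.

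The gut genes higher in tumour 2 have other roles. Muc5b, a secreted gel-forming mucin of glands, had 3 counts in tumour 1 and 403 in tumour 2 (112-fold, 37.9 to 544). Lgr5, a receptor that marks crypt stem cells, had 1.18 and 19.5 CPM (16.6-fold, 9.51 to 31.5). Tff2, a trefoil peptide of gastric mucous cells, had 1.72 and 12.2 CPM (7.09-fold, 4.39 to 12.1). Vsig1, a gastric junction protein, stood at 15.2 and 25.8 CPM and was at 0 counts in both normal livers. The CDX letters TTTATG were in 1 of the 8 promoters matched to gut genes past 4-fold higher in tumour 1 (12.5%, from 7 of 12 genes), and in 11.9% of all promoters.

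Genes outside the gut lists were also far apart toward tumour 1. Clca4, a member of the chloride channel accessory family, had 841 CPM in tumour 1 and 6.17 CPM in tumour 2 (136-fold, 110 to 172). Tmigd1, an immunoglobulin-domain protein of intestinal and kidney epithelium, had 136 and 0.451 CPM (302-fold, 138 to 823), and was at 0 counts in the normal livers. Tm4sf4, a tetraspanin-like protein of liver and gut, had 1206 and 36.2 CPM (33.3-fold). Shisa2 differed by 153-fold and Mctp1 by 109-fold. Among the bile duct markers, Cftr, the chloride channel of duct cells, had 466 counts in tumour 1 and 7 in tumour 2, whereas Aqp1, the water channel, had 23 and 2133. These marker genes were picked out after their values were seen, and they show that the duct list did not move as one.

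Epithelial genes were expressed in both tumours, and those that differed past 4-fold were all higher in tumour 1. This held for 7 of 41 epithelial genes compared (background 3.34%), and for none in the direction of tumour 2. The median of the 41 was 0.88, and 19 lay within 2-fold. Of the 33 that reached 10 CPM in both tumours, 1 was past 4-fold and the median was 0.43, so the other 6 entered through tumour 1 alone. With a minimum of 1 CPM in place of 10 the median was 0.10, and 6 epithelial genes were past 4-fold higher in tumour 2. Epcam, an epithelial adhesion molecule, had 356 counts in tumour 1 and 4 in tumour 2, or 32.2 and 0.301 CPM, with 2.88 and 2.60 CPM in the normal livers (107-fold, 41.5 to 395). The level of Epcam in tumour 2 was below that of both normal livers.

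Junction genes past 4-fold covered several kinds of contact. Ocln, the tight junction protein occludin, had 141 CPM in tumour 1 and 13.2 CPM in tumour 2 (10.6-fold, 9.08 to 12.5). Marveld2, tricellulin of the contacts where several cells meet, had 12.4 and 0.978 CPM (12.7-fold, 7.17 to 24.4). Dsc2, a desmosomal cadherin, had 28.2 and 2.41 CPM, both below the 118 and 113 CPM of the normal livers. Prom1, an apical membrane protein, differed by 11.2-fold, Spint1, an inhibitor of surface proteases, by 9.19-fold and Krt23, an epithelial keratin, by 11.7-fold. Each of these had at least 13 counts in tumour 2.

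Other epithelial genes, named by the rule or as the highest within 2-fold, differed less. Cdh1, E-cadherin, had 864 CPM in tumour 1 and 406 CPM in tumour 2, against 30.9 and 27.4 CPM in the normal livers (2.13-fold, 2.06 to 2.20). Krt19, a biliary keratin, had 872 and 433 CPM (2.01-fold) and Krt7, its partner in ducts, 317 and 295 CPM, with at most 0.434 CPM of Krt7 in the normal livers. Krt18 had 1101 and 1946 CPM, and Krt8 had 836 and 1023 CPM, with 33.3% of the sampled words of Krt8 shared with other genes. The desmosomal plaque gene Dsp stood at 558 and 628 CPM. The tight junction scaffold gene Tjp1 stood at 786 and 428 CPM. The epithelial regulators had no gene past 4-fold among 6 compared, but their median was 1.17 and 3 of them were past 2-fold higher in tumour 1. The 3 within 2-fold were Elf3 at 31.9 and 32.7 CPM, Klf4 at 72.1 and 82.8 CPM and Esrp2, a splicing factor, at 15.0 and 8.35 CPM. Keratin and E-cadherin RNA was thus above normal liver in both tumours, which differed in a subset of junction genes.

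**Figure D4:**
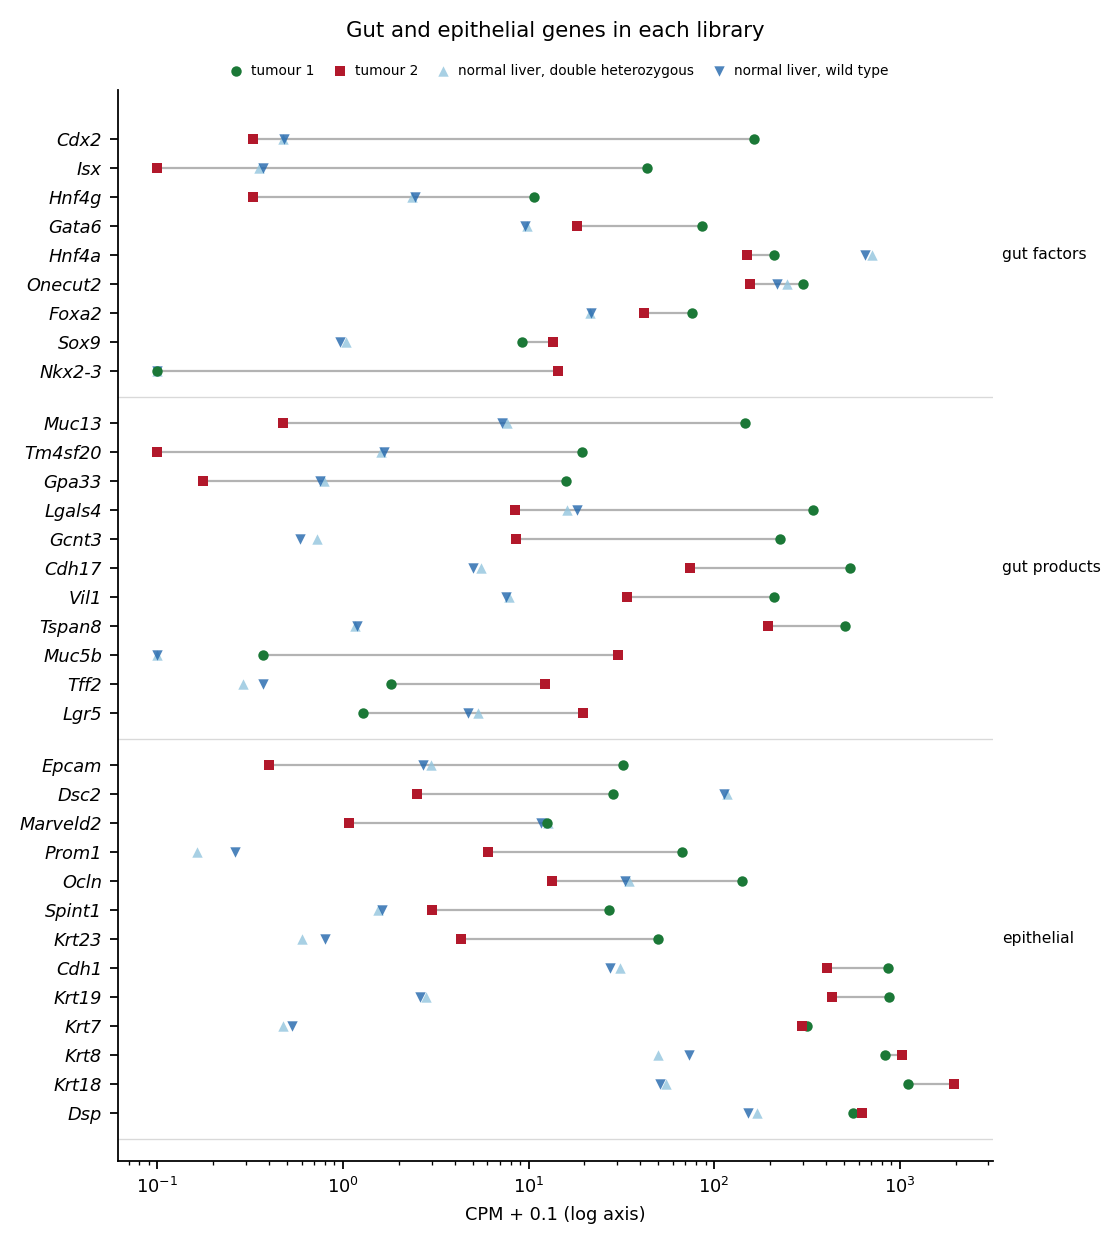
Level of gut and epithelial genes in each library (CPM plus 0.1, log axis; each point is 1 library and the grey line joins the tumours; genes drawn from the lists with values known). Cdx2, Isx, Muc13 and Epcam are high in tumour 1 and near or below normal liver in tumour 2, whereas Krt7, Krt8, Krt18 and Dsp are close together in the tumours and above normal liver.

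Mesenchymal genes ranged from near 0 in tumour 1 to high in both tumours. Of 24 genes compared, 12 were past 4-fold higher in tumour 2 (background 7.62%) and none in tumour 1. All 24 reached 10 CPM in tumour 2, but only 11 did so in tumour 1. Among those 11 the median log2 ratio was -0.19 and 1 gene was past 4-fold, against a median of -2.02 over the 24, and with a minimum of 50 CPM the list median was -0.63. That gene was Vim, the intermediate filament vimentin, with 671 CPM in tumour 1 and 3286 CPM in tumour 2, and 5.52 and 4.93 CPM in the normal livers (4.90-fold, 4.78 to 5.02).

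The largest ratios, named for that, included receptors and transcription factors of mesenchymal cells. Pdgfrb, the PDGF receptor beta of pericytes and fibroblasts, had 2 counts in tumour 1 and 1527 in tumour 2 (635-fold, 175 to 5244). Pdgfra, the alpha receptor, had 1 and 685 counts, and Prrx1, a mesenchymal homeobox factor, had 1 and 746. Twist1, a factor of mesenchymal identity, had 0 and 343 counts, at least 95.02-fold higher in tumour 2. Acta2, smooth muscle actin of myofibroblasts, had 0.995 and 169 CPM (170-fold, 94.6 to 340). For these 5 genes the normal livers held at most 2.88 CPM. In contrast, S100a6, a calcium-binding protein, had 1219 and 1708 CPM in the tumours, the receptor kinase gene Axl had 866 and 792 CPM, and Cd44, the hyaluronan receptor, had 518 and 482 CPM. The normal livers held at most 8.02 CPM of each, so these were well above normal liver in both tumours.

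Most collagens compared were higher in tumour 2. Of 20 collagen genes compared, 14 were past 4-fold higher in tumour 2 and none in tumour 1, with a median of -3.47. Of the 10 that reached 10 CPM in both tumours, 4 were past 4-fold and the median was -1.19. With a minimum of 1 CPM the list median was -2.45 and with no filter -1.0005, each with 1 gene past 4-fold higher in tumour 1. Summed over the list, collagens stood at 1589 CPM in tumour 1 and 3867 CPM in tumour 2, against 2804 and 2663 CPM in the normal livers, where Col18a1 alone had 2556 and 2413 CPM.

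Col1a2, the second chain of fibrillar collagen I, had 1 count in tumour 1 and 5230 in tumour 2, or 0.0905 and 393 CPM. Col1a1, its partner chain, had 30 and 3757 counts (104-fold, 72.8 to 154), and Col3a1, another fibrillar collagen, had 14 and 2190 (130-fold, 77.3 to 238). Col6a3 and Col6a2, chains of the microfibrillar collagen VI, had 1 and 3505 counts and 20 and 903 counts. Col8a1, a network collagen of vessels, had 3 and 1414 counts and was at 0 in the normal livers. Only 4 of the 20 lay within 2-fold, and the 3 highest of those, named for that, are basement membrane collagens. Col4a1 had 483 CPM in tumour 1 and 467 CPM in tumour 2 (1.03-fold, 0.997 to 1.07), Col4a2 had 242 and 228 CPM, and Col18a1 had 452 and 459 CPM. Col4a1 stood at 14.5 and 14.0 CPM in the normal livers, so its level was high in both tumours.

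Other matrix genes ranged as widely. Among 50 glycoproteins and proteoglycans compared, 16 were past 4-fold higher in tumour 2 and none in tumour 1, and 24 lay within 2-fold. Of the 36 that reached 10 CPM in both tumours, 4 were past 4-fold. Bgn, the proteoglycan biglycan, had 1 count in tumour 1 and 929 in tumour 2, and Thbs2, thrombospondin 2, had 2 and 1215. Efemp1, a fibulin, had 2.99 and 384 CPM (129-fold, 91.4 to 187). Ccdc80, a secreted matrix protein outside the lists, had 4 and 4682 counts. Fbn1, the microfibril protein fibrillin, differed by 69.1-fold with 19.8% of its sampled words shared. Fn1, fibronectin, had 3254 and 3102 CPM in the tumours and 3571 and 3242 CPM in the normal livers. Spp1, osteopontin of bile duct cells with 12.3% of its sampled words shared, had 2050 and 2221 CPM, Fbln2, a fibulin, 1575 and 1533 CPM, and Lama5, a laminin chain of epithelial basement membranes, 1501 and 1192 CPM, all against at most 15.9 CPM in the normal livers.

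Matrix enzymes were the matrix list with members on both sides. Of 49 compared, 14 were past 4-fold higher in tumour 2 and 2 higher in tumour 1, and of the 31 that reached 10 CPM in both tumours 3 and 1 were. Has2, a hyaluronan synthase, had 1 and 761 counts, and Mmp2, a gelatinase of stromal cells, had 4 and 209 (43.4-fold, 16.7 to 161). Adamts2, the protease that trims procollagen I, had 1.27 and 21.7 CPM (17.2-fold). The 2 genes higher in tumour 1 were Mmp12, macrophage elastase, with 375 and 0 counts (at least 150-fold), and Adamts15, a proteoglycan-cleaving protease, with 187 and 15.3 CPM (12.3-fold, 10.6 to 14.2). Timp2, a protease inhibitor, stood at 869 and 462 CPM.

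Stromal cell markers were higher in sum in tumour 2, but their list overlaps the mesenchymal and matrix lists and is no separate check of them. The 17 stellate cell and fibroblast markers summed to 7.87 CPM in tumour 1 and 1196 CPM in tumour 2, against 144 and 132 CPM in the normal livers. Of the 17, 10 are themselves members of the mesenchymal or matrix lists. The other 7 summed to 0.814 and 4.29 CPM, with at most 46 counts for 1 gene in tumour 2. The defining stellate cell genes Lrat, Hand2 and Ngfr were at 0 in both tumours, as was the fibroblast proteoglycan Lum. The 15 endothelial markers summed to 7.96 and 63.7 CPM in the tumours, below the 259 and 258 CPM of the normal livers, with Flt1, the VEGF receptor 1, at 6 and 391 counts. The 13 muscle markers summed to 3.62 and 54.0 CPM, and Tnnt2, cardiac troponin T, made up 27 and 703 of these counts. Flt1, Tnnt2 and the markers at 0 were named after their values were seen. In bulk RNA fewer cells of a type and less RNA per cell cannot be told apart, and the part of these cell types in the matrix result was not tested.

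**Figure D5:**
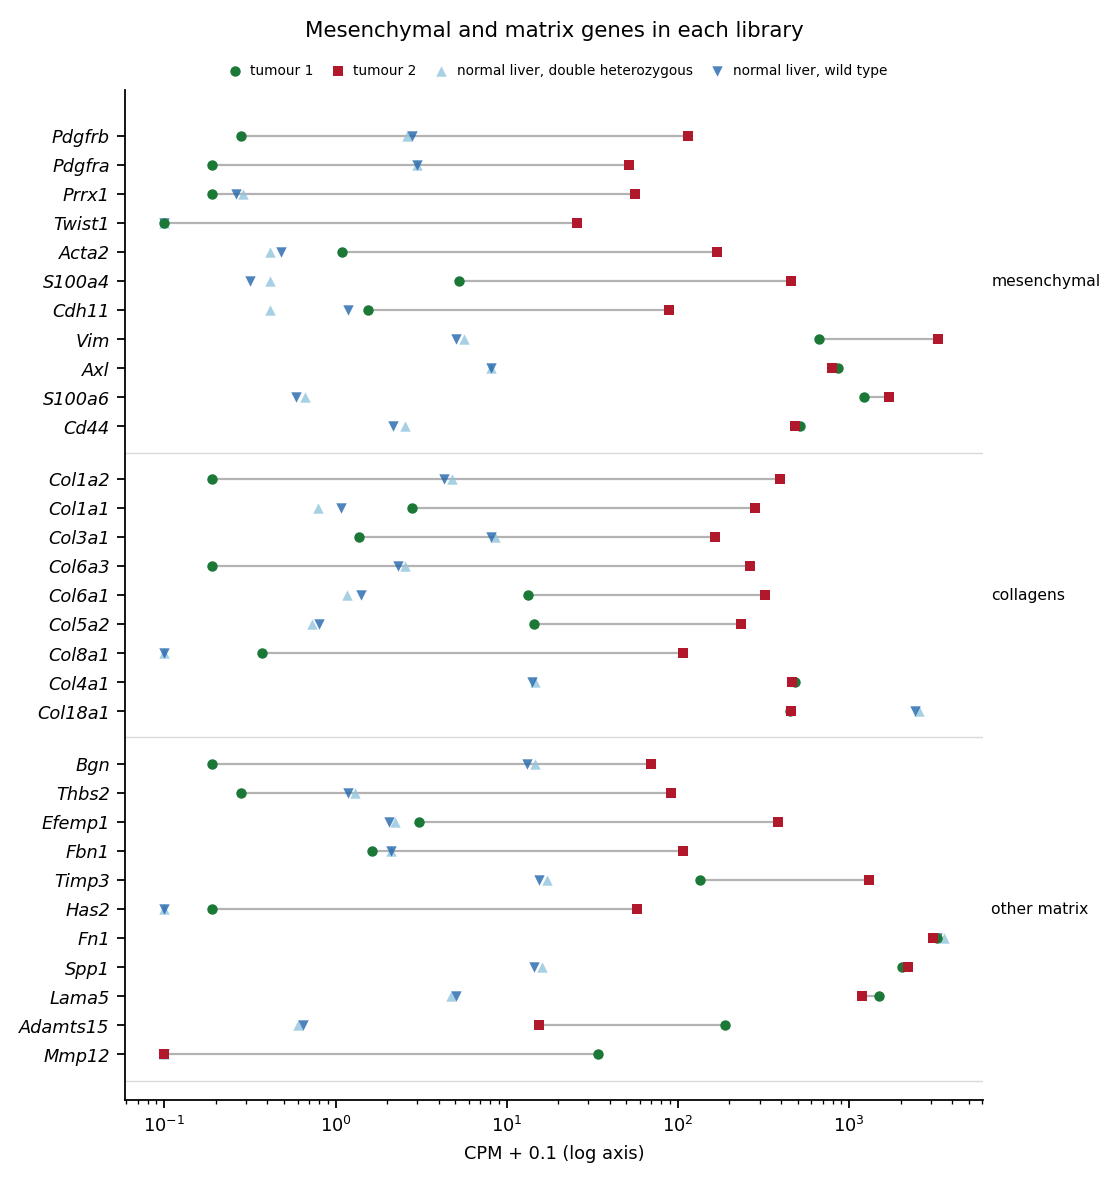
Level of mesenchymal and matrix genes in each library (CPM plus 0.1, log axis; each point is 1 library and the grey line joins the tumours; genes drawn from the lists with values known). Col1a1, Col1a2, Col3a1, PDGF receptors and Twist1 are near the bottom of the axis in tumour 1 and high in tumour 2, whereas Axl, Cd44, Col4a1, Fn1, Spp1 and Lama5 are close together in the tumours.

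Secreted proteins differed in kind between the tumours rather than in one direction. Of 118 genes compared, 19 were past 4-fold higher in tumour 1 and 22 higher in tumour 2, with a median of 0.14. This median turned to -0.40 with a minimum of 1 CPM and was 0.49 with a minimum of 50 CPM. Plasma and acute phase genes and cytokines and chemokines were more often on the side of tumour 1 (10 of 34 and 6 of 24 past 4-fold, against 5 and 1 toward tumour 2). Growth factors and their antagonists were more often on the side of tumour 2 (16 of 55, against 2 toward tumour 1). Over all genes compared, 3.34% were past 4-fold toward tumour 1 and 7.62% toward tumour 2. The 2 growth factors toward tumour 1 (3.64%) were near that share, and the 1 cytokine toward tumour 2 (4.17%) was under it. Of all 8576 genes at 10 CPM in both tumours, 93 were past 4-fold toward tumour 1 and 194 toward tumour 2. Among genes that reached 10 CPM in both tumours the counts were lower: 6 of 25 plasma genes, 2 of 16 cytokines and chemokines and 0 of 37 growth factors were past 4-fold toward tumour 1, against 1, 0 and 2 toward tumour 2. The side of the growth factors thus rests mostly on genes that entered through tumour 2 alone, and these counts were not tested against each other.

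Acute phase and plasma genes higher in tumour 1 included products of hepatocytes and of epithelia. Saa3, a serum amyloid A made outside the liver as well, had 940 CPM in tumour 1 and 19.8 CPM in tumour 2, against 7.52 and 8.18 CPM in the normal livers (47.5-fold, 42.1 to 53.9). Lcn2, an iron-binding defence protein, had 2049 and 304 CPM (6.75-fold, 6.53 to 6.98), against 4.51 and 4.39 CPM in the normal livers. Lcn2 and Saa3 were thus above normal liver in both tumours.

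Several products of normal hepatocytes were among the genes named. Apob, the lipoprotein backbone of liver and intestine, had 2309 CPM in tumour 1 and 210 CPM in tumour 2, against 29094 and 25804 CPM in the normal livers (10.985-fold, 10.6 to 11.4). C3, the central complement protein, had 2810 and 604 CPM against 15051 and 14249 CPM (4.66-fold between the tumours). Crp had 32.4 and 3.69 CPM and Ambp 20.2 and 0.677 CPM. In the other direction, Wfdc2, a secreted WAP-domain protein of duct epithelium, had 0 and 629 counts (at least 174-fold), Ptx3, a pentraxin of stromal cells, 0 and 196 (at least 54.3-fold), and Serpinf1 16 and 849 (44.1-fold, 27.0 to 77.5). Apob, C3, Crp and Ambp were below normal liver in both tumours. Afp, a fetal liver product, had 19 and 85 counts, or 1.72 and 6.39 CPM, above the 0.376 and 0.325 CPM of the normal livers.

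The cytokines and chemokines past 4-fold toward tumour 1 included neutrophil attractants. Cxcl5 had 5208 CPM in tumour 1 and 1082 CPM in tumour 2, against 0.251 and 0.163 CPM in the normal livers (4.81-fold, 4.72 to 4.90). Cxcl3 had 164 and 3 counts (65.8-fold, 22.1 to 322), Cxcl2 had 258 and 19 with 10.6% of its sampled words shared, and Il11, a cytokine of the IL-6 family, had 191 and 23 (9.99-fold, 6.47 to 16.1). The monocyte attractant gene Ccl7 had 119 and 21.1 CPM (5.63-fold), and Ccl6, a chemokine of myeloid cells, had 295 and 4 counts (88.7-fold, 34.3 to 328). Ccl2, which attracts monocytes, and Cxcl1, which attracts neutrophils, stood within 2-fold at 663 and 354 CPM and at 419 and 279 CPM. Ccl17, a T cell attractant, went the other way with 1 and 218 counts. The neutrophil markers summed to 2.26 and 4.29 CPM in the tumours, near their level in the normal livers (1.44 and 2.06 CPM).

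Some macrophage markers moved with genes higher in tumour 1. The 15 markers summed to 109 CPM in tumour 1 and 10.1 CPM in tumour 2, against 170 and 160 CPM in the normal livers. Without Lyz2, which is also in a secreted list, the other 14 summed to 50.8 and 8.65 CPM. Lyz2, a macrophage lysozyme with 37.2% of its sampled words shared, had 644 and 19 counts, the integrin gene Itgam (66.97% shared) 162 and 1, the scavenger receptor gene Marco 121 and 1, Emr1 (the antigen F4/80) 93 and 0, and Mpeg1 107 and 25. The defining Kupffer cell genes Clec4f, Cd5l, Vsig4 and Timd4 were at 0 in both tumours, and C1qa, C1qb and C1qc had at most 2 counts. Cd68 went the other way, at 2.71 and 4.89 CPM (1.80-fold higher in tumour 2, 1.15 to 2.88). Cyba, a subunit of the phagocyte oxidase, differed by 42.8-fold (151 and 3.54 CPM). The part of macrophages in the levels of Ccl6, Mmp12, Lyz2 and Cyba in tumour 1 was not tested, and the markers other than Lyz2 were named after their values were seen.

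Growth factors and their antagonists included the genes of stromal signalling on the side of tumour 2. Grem1, a secreted BMP antagonist, had 0 counts in tumour 1 and 872 in tumour 2, at least 242-fold higher. Fgf7, a stromal growth factor for epithelia, had 1 and 300 counts, and Dkk3, a member of the Dickkopf family, had 1 and 320. Fst, the activin antagonist follistatin, had 2.72 and 141 CPM (51.8-fold, 36.2 to 77.0), and Angptl2 had 0.543 and 55.4 CPM (102-fold). Igfbp2, an IGF-binding protein of hepatocytes, had 2 and 1038 counts, or 0.181 and 78.1 CPM, below the 1020 and 913 CPM of the normal livers. The 2 growth factor genes past 4-fold higher in tumour 1 were Pdgfd, a ligand of the PDGF receptor beta, at 53.0 and 1.65 CPM (32.0-fold, 21.0 to 51.5), and Chrd, the BMP antagonist chordin, at 15.0 and 2.33 CPM. Pdgfd was therefore higher in the tumour with 2 counts of its receptor gene Pdgfrb.

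Several secreted genes were high in both tumours and low in normal liver. Sema3c, a guidance factor, had 1590 and 1328 CPM in tumours 1 and 2 against at most 0.434 CPM in the normal livers. Igfbp7 had 469 and 453 CPM, the macrophage growth factor gene Csf1 331 and 563 CPM, and Gdf15, a stress-induced factor of the TGF-beta family, 92.1 and 83.4 CPM. Of the hormones and neuropeptides, 5 of 67 genes in the tables were compared, and Stc2, stanniocalcin 2, was the 1 past 4-fold, at 109 and 6.02 CPM (18.1-fold higher in tumour 1, 14.4 to 23.0).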

How the data were processed

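RNA was sequenced from 2 liver tumours and 2 normal livers. Per the labels' protocols, TRIZOL was used for total RNA and a TruSeq kit for the libraries. The submitters' processing notes list the build mm9 and the tools TopHat2 2.0.10, HTSeq, FastQC, Trimmomatic and DESeq2 without roles, and do not say if counting used strand. The authors deposited raw counts per gene, 1 table a library, with 25793 symbols and no normalization by the authors. Another 5 lines per table name no gene and were left out of the totals. Of all counts, those 5 lines included, reads outside genes were 13.6% in tumour 1 and 16.4% in tumour 2. Reads not unique were 45.6% and 42.3%.

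From the counts, CPM over total gene counts was computed with Python 3.11.15, and log2 ratios with a prior count of 2. Genes with at least 10 CPM in at least 1 tumour were compared. Past 4-fold means a log2 ratio beyond 2 in either direction. Printed folds are plain CPM ratios with exact (Clopper-Pearson) 95% counting intervals. The reads carry no molecular identifiers, so intervals and floors cover counting error only. A fold against 0 counts uses the floor of 3 counts. No test was run, because each side has 1 library. The ratio and interval code was tested on simulated data.

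The comparison, the 16 program lists and the 12 marker lists were chosen with earlier results of these data known, so the lists' counts are descriptions. The genes named were a set list, the 12 largest ratios in each direction among genes with 100 CPM in the higher tumour, up to 6 genes a list past 4-fold in each direction, and the 3 highest genes a list within 2-fold. Others are marked as named after their values were seen. The genome reference is of another build (GRCm38), so it served for sequence only: 89.3% of symbols matched, and genes with over 10% of sampled 31-base words in another gene are given as shared, 21.2% of the matched genes compared and 21.4% of those past 4-fold. Genes that overlap another gene on either strand can also share counts, which was not checked. Alternatives were TMM and median-of-ratios scaling (edgeR 4.0.16, R 4.3.3), other prior counts, minimums and fold thresholds, and leaving out genes with shared sequence. Some of the genes that this rule names are not reported here.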

Additional observations from a re-analysis of the deposited data

How the results depend on the processing

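With 1 library a tumour, no library could be left out. No paired analysis was possible because each tumour is a single library. TMM scaling, median-of-ratios scaling and prior counts of 0.5 and 5 moved none of the values over all genes and over the 6 whole programs past the limits used (1.5 times for a count, the counting interval for a median), and no program median changed sign under them, while the all-gene median went from -0.07 to 0.000765 with TMM. Of 238 such values under alternatives, 185 stayed within those limits, and 53 moved. Of 544 values of single lists 122 moved, mostly with the minimum. Scaling and prior counts moved only the cyclin D and CDK list (median -0.29 with TMM and -0.30 with median-of-ratios against -0.35, and 0 in place of 1 gene past 4-fold with both and with a prior count of 5) and the cytokine list (2 in place of 1 gene toward tumour 2 with a prior count of 0.5). A minimum of 1 CPM, of 50 CPM or none changes which genes are compared, and a low-count gene reaches 4-fold more easily.

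Over all genes, those past the threshold toward tumour 1 numbered 344, and 718 with a minimum of 1 CPM, 127 with 50 CPM, 803 with no filter, 1160 past 2-fold and 171 past 8-fold. Toward tumour 2 the count was 784, and 1335, 368, 1467, 1808 and 469 in the same order. Epithelial genes had a median of 0.88, and of 0.10 with 1 CPM, 0.57 with 50 CPM and 0.012 with no filter; 2 were past 4-fold toward tumour 1 with 50 CPM and 19 past 2-fold, and toward tumour 2 there were 6 with 1 CPM, 7 with no filter and 3 past 2-fold. Gut genes had a median of 2.11 with 50 CPM and 0.62 with no filter, with 20, 7 and 21 past 4-fold toward tumour 1 (1 CPM, 50 CPM, no filter) and 8, 0 and 9 toward tumour 2. Matrix genes had a median of -0.95 with 50 CPM and -0.94 with no filter, with 6, 1 and 6 past 4-fold toward tumour 1, 10 past 2-fold, and 26 toward tumour 2 with 50 CPM. Mesenchymal genes had a median of -2.66 with 1 CPM and with no filter and -0.63 with 50 CPM, which left 7 past 4-fold toward tumour 2. Among proliferation genes 3 were past 2-fold toward tumour 1. Secreted genes had a median of -0.40 with 1 CPM, 0.49 with 50 CPM and -0.27 with no filter, with 29, 11 and 30 past 4-fold toward tumour 1, 32 past 2-fold, and 51, 8 and 54 toward tumour 2. Without genes with shared sequence the mesenchymal median was -1.54. An alternative chosen after seeing the data, a mean of at least 10 CPM over both tumours, gave medians of 1.38 for gut, -0.96 for matrix and -1.54 for mesenchymal genes, and 2 gut genes past 4-fold toward tumour 2.

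Depth limits the low end: a count of 0 allows a level of up to 0.271 CPM in tumour 1 and 0.226 CPM in tumour 2, so a ratio to 0 counts has only a lower bound and a ratio to 1 to 3 counts a wide interval.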

Other observations

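The genes below lie outside the lists of the report or were picked out after their values were seen, and are given as values. Replication-dependent histone genes lay on the side of tumour 2. Of 64 histone symbols of the clusters Hist1, Hist2 and Hist3, 48 were compared, 40 were past 4-fold higher in tumour 2 and none in tumour 1, with a median log2 ratio of -3.35. Over all genes compared, 7.62% were past 4-fold higher in tumour 2. Histone genes can share sequence, as Hist1h3c did for 60.9% of its sampled words, so their counts need not be separate observations. Hist1h1b, a linker histone gene, had 176 counts in tumour 1 and 6424 in tumour 2 (30.3-fold, counting interval 26.1 to 35.4), against 1 and 2 counts in the double heterozygous and wild type normal livers.

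A few genes of detoxification, picked in the same way, lay on both sides. Nqo1, a quinone reductase, had 14 counts in tumour 1 and 1651 in tumour 2 (98.0-fold, 58.2 to 180), at 2.82 and 2.66 CPM in the normal livers. Gsta4, a glutathione transferase, had 1058 CPM in tumour 1 and 155 CPM in tumour 2 (6.82-fold, 6.51 to 7.15), and Cyp3a13, a cytochrome P450, had 135 and 18.6 CPM. Of the drug efflux pump gene Abcb1a, 205 and 15.0 CPM were counted, with 30.5% of its sampled words shared with other genes. Nqo1 thus stood near 0 in the tumour where Gsta4 and Cyp3a13 were higher.

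Among genes higher in tumour 1 were 3 that act in innate sensing, picked for their values and not from a list. Lbp, the lipopolysaccharide-binding protein, had 654 CPM in tumour 1 and 79.8 CPM in tumour 2, against 94.9 and 90.3 CPM in the normal livers (8.19-fold, 7.68 to 8.75). Tifa, an adaptor of the NF-kappaB pathway, had 251 and 10.7 CPM (23.5-fold, 19.9 to 28.1), and Unc93b1, a chaperone of endosomal Toll-like receptors, had 105 and 12.1 CPM (8.70-fold, 7.37 to 10.3). Some macrophage markers were higher in tumour 1 too (109 against 10.1 CPM in sum, of which Lyz2, with shared sequence, held 58.3 and 1.43 CPM). The Kupffer cell genes Clec4f, Cd5l, Vsig4 and Timd4 were at 0 in both tumours, and Cd68 was higher in tumour 2. The part of macrophages in the levels of Lbp, Tifa and Unc93b1 was not tested.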
